A study of Homo sapiens with 16 samples.

Results

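The MYC and MAX network and the MYB family were followed here through 8 time points of treatment of K562 cells with phorbol 12-myristate 13-acetate (PMA). The 10 genes were taken by name: MYC and its partner MAX, the MXD repressors MXD1, MXI1 and MXD4, the MAX-binding repressors MNT and MGA, and the MYB family genes MYB, MYBL1 and MYBL2. They were 10 of the 17559 genes that passed the low-count filter, and all 10 named genes passed it. K562 is a human leukaemia cell line with erythroid features, of wild-type genotype in every group, and PMA, an activator of protein kinase C, drives it toward megakaryocyte features. All groups received 25 nM PMA and differed in its duration, from 0 and 0.5 h through 1.5, 3 and 6 h to 24, 48 and 72 h, with 2 libraries per group, and the medium was replaced after 24 and 48 h. The 0 h libraries, which carry the PMA label with a duration of 0 h, served as the control. The libraries were made from total RNA after removal of ribosomal RNA. The labels do not say whether the 2 libraries of a group came from separate cultures, so the p-values measure the spread between these libraries, which may be technical.

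MYC is a transcription factor that binds E-box DNA as a pair with MAX and activates genes of growth and ribosome production. The MXD proteins, MNT and MGA also pair with MAX, occupy the same sites and recruit corepressors, so MYC and its antagonists share a partner. MYB is a factor of blood progenitors whose loss accompanies the maturation of many blood lineages, MYBL2 is a cell-cycle factor that joins the MuvB complex on genes of G2 and mitosis, and MYBL1 is best known from male germ cells.

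The 250 bases before an annotated start were searched on both strands for the E-box CACGTG, the E2F core GGCGGGA, the EGR site GCGNGGGCG, the AP-1 site TGANTCA and the ETS core CCGGAAG. The windows are from RefSeq on GRCh38.p14, read 5′ to 3′ on the gene's strand, with every match in capitals. Shown are those of MYB (chr6:135181058-135181307, plus strand), of MYBL2 (chr20:43666864-43667113, plus strand) and of the first and the last of the 3 MXI1 starts (chr10:110207355-110207604 and chr10:110225746-110225995, plus strand), since these 3 genes had the largest falls described below, and of MNT (chr17:2401061-2401310, minus strand), which rose.
MYB: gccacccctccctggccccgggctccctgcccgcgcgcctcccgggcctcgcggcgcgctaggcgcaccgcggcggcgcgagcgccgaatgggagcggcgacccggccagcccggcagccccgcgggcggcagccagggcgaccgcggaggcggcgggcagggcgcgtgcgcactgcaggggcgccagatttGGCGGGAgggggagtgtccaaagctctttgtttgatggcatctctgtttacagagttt
MYBL2: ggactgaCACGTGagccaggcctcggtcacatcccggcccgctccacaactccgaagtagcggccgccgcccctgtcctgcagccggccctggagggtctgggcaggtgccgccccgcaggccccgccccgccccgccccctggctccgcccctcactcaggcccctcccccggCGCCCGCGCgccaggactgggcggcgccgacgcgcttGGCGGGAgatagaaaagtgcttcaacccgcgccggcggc
MXI1 first start: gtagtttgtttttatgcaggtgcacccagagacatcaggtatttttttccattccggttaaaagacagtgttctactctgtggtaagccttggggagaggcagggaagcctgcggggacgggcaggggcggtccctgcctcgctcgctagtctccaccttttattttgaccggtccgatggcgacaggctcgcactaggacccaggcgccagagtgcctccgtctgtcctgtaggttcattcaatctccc
MXI1 last start: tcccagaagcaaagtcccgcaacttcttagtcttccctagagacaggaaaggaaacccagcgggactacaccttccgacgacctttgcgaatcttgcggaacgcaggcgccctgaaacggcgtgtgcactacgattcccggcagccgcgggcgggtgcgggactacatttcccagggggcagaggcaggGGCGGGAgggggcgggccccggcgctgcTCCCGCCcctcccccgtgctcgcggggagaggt
MNT: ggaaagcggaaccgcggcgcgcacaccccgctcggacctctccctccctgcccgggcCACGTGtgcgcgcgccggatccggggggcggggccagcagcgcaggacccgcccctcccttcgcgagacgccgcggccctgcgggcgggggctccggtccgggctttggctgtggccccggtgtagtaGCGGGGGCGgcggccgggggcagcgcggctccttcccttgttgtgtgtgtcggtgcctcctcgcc
In MYB the capitals mark an E2F core beginning 58 bases before the start. In MYBL2 they mark an E-box at 243 bases, an EGR site on the other strand at 76 bases and an E2F core at 39 bases before the start. In the last MXI1 window they mark E2F cores at 61 and 33 bases, the latter on the other strand, and the first MXI1 window held no match. In MNT they mark an E-box at 193 and an EGR site at 65 bases before the start. No matches overlapped in these windows. Among 35116 RefSeq windows of the same length, 6.34% held the E-box, 13.53% the E2F core, 8.41% the EGR site, 6.57% the AP-1 site and 8.52% the ETS core. Of the windows not printed, that of MXD1, which also rose, held no match. MGA rose too. Its windows at chr15:41620974-41621223 and chr15:41660155-41660404 held no match, and that at chr15:41660497-41660746 held an EGR site 100 bases before the start. None of these matches shows binding, and windows for MYC and MYBL1 were not used here.

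Library totals ranged from 27285773 to 54056289 estimated reads. The 6 erythroid markers of K562 were all at 1 CPM or more at every time point (CPM, reads scaled to a common library size), with a sum of 829.9 to 899.7 CPM at 0 h and 385 to 400.1 CPM at 24 h. The summed megakaryocyte markers were at 60.3 to 70.1 CPM at 0 h and 5360 to 6169 CPM at 72 h, with 2 of 6 at 0 reads in both 0 h libraries. THBS1 (4593 CPM) and ITGB3 (1092 CPM) made up most of the 72 h sum. ITGA2B, which encodes the megakaryocyte integrin CD41, was called lower at 6, 24 and 48 h (-2.14 at 24 h) and not called at 72 h, and PF4 stayed under the filter. Summed lymphoid markers lay between 6.23 and 18.8 CPM, and monocyte and macrophage markers between 44.9 and 90.4 CPM. Within the latter CSF1R rose (log2 6.79 at 48 h) and LYZ fell (-1.03 at 24 h). Fibroblast and epithelial markers summed to between 48.8 and 269 CPM. Of these COL1A1 rose (6.13 at 48 h), while COL3A1 stayed under the filter. EPCAM was called higher at 3 and 6 h and lower at 48 and 72 h (-1.33 at 72 h). CDH1 was called lower from 24 h on (-0.88 at 72 h). These lists moved with time as the genes below did, and their part in the results was not tested. In such bulk RNA a change in cell composition and a change of RNA per cell cannot be told apart. The 2 libraries at 0 h differed with the GC content of genes, with a correlation across 9975 genes of r = -0.73 for replicate 1 minus replicate 2, and the fold change at 0.5 h followed GC content at r = -0.76. When the GC trends were removed, no call of a network or MYB family gene was lost.

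Changes were tested with edgeR's quasi-likelihood test on all 17559 genes, and a gene was called at a Benjamini-Hochberg adjusted p under 0.05. Over the whole course all 10 genes changed, against 82.9% of all genes. At 0.5 h none of the 10 was called by edgeR or DESeq2, although 3 had an unadjusted p under 0.05, and 0.171% of all genes were called (0.165% higher, 0.0057% lower). At 1.5 h MXD1 was higher and MYC and MYB were lower, 3 of 10 against 17.1% of all genes (9.05% higher, 8.05% lower). At 3 h 2 were higher and 3 lower, against 42.0% of all genes (21.5 and 20.5%). At 6 h 4 were higher and 3 lower, against 57.2% (27.8 and 29.4%). The counts were 3 higher and 3 lower at 24 h, against 58.3% of all genes (31.7 and 26.6%), and 2 higher and 4 lower at 48 h, against 54.3% (30.2 and 24.1%). At 72 h 2 were again higher and 4 lower, against 58.6% (31.7 and 26.9%). From 3 h on the share of the 10 genes that was called was near that of all genes. Scaling to total counts, which moved the median of all genes by -0.12 to -0.35 on the log2 scale from 1.5 to 72 h, shifted calls toward lower: 2 higher and 6 lower at 3 h, 2 and 5 at 6 h, 1 and 5 at 24 h, with 1 and 4 at 48 and 72 h.

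Between neighbouring time points the step from 6 to 24 h had the most calls, 7 of 10, and also the most among all genes. From 0.5 to 1.5 h 1 rose and 2 fell, 3 of 10 against 5.77% of all genes (4.11% higher, 1.67% lower). From 1.5 to 3 h 1 rose and 2 fell, against 25.1% (13.0 and 12.1%), and from 3 to 6 h 3 rose and 2 fell, against 41.2% (19.0 and 22.1%). From 6 to 24 h 3 rose and 4 fell, against 56.6% of all genes (30.8 and 25.8%). From 24 to 48 h 1 rose and 1 fell, against 15.0% (8.88 and 6.12%), and from 48 to 72 h only MYB was called, lower, against 1.47% (1.14% higher, 0.325% lower).

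**Figure D1:**
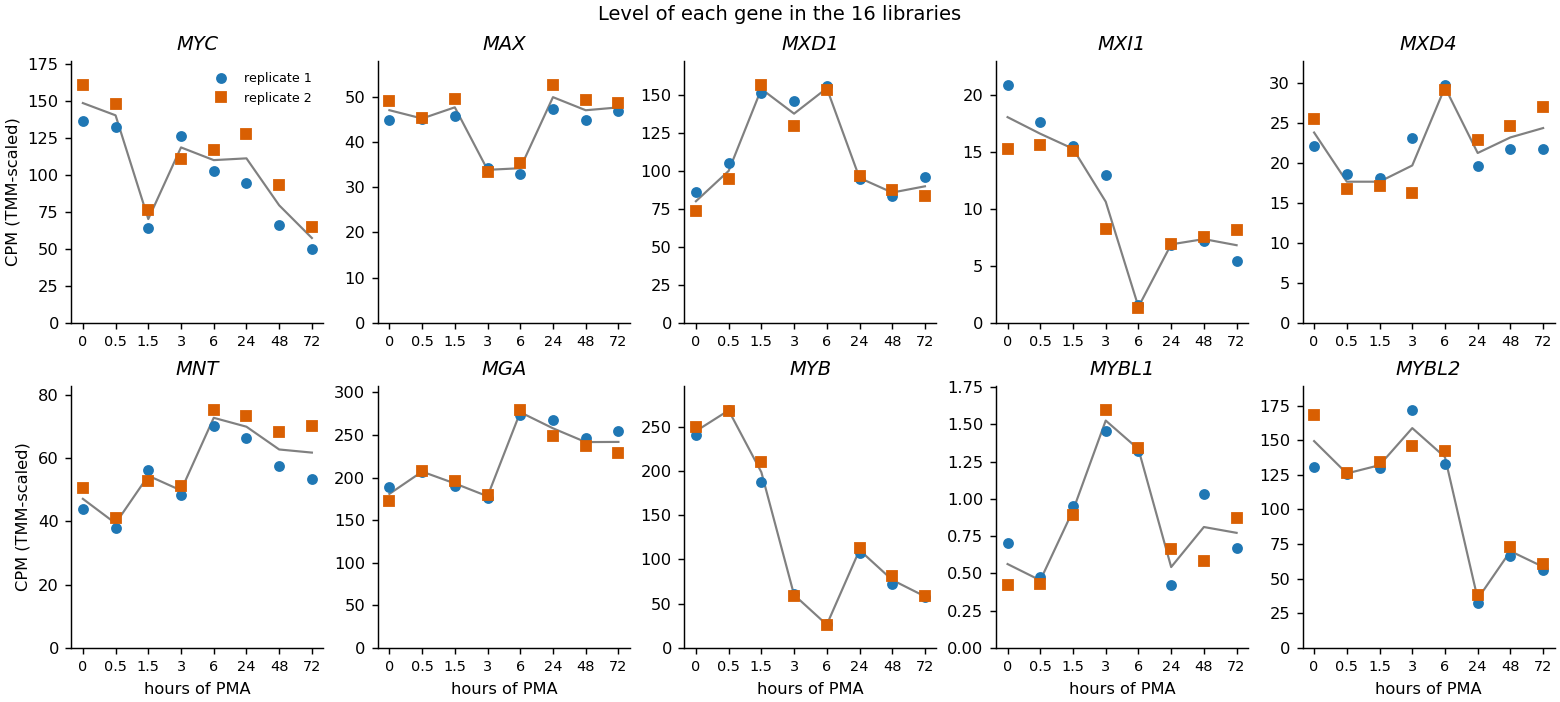
CPM of each of the 10 genes (vertical axes, from 0, each with its own scale) in the 16 libraries at 0 to 72 h of PMA (horizontal axes, evenly spaced by time point). Circles are replicate 1, squares replicate 2 and lines the mean of 2. MYB and MXI1 reach their lowest level at 6 h and MYBL2 at 24 h, while MXD1 is highest at 1.5 to 6 h.

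**Figure D2:**
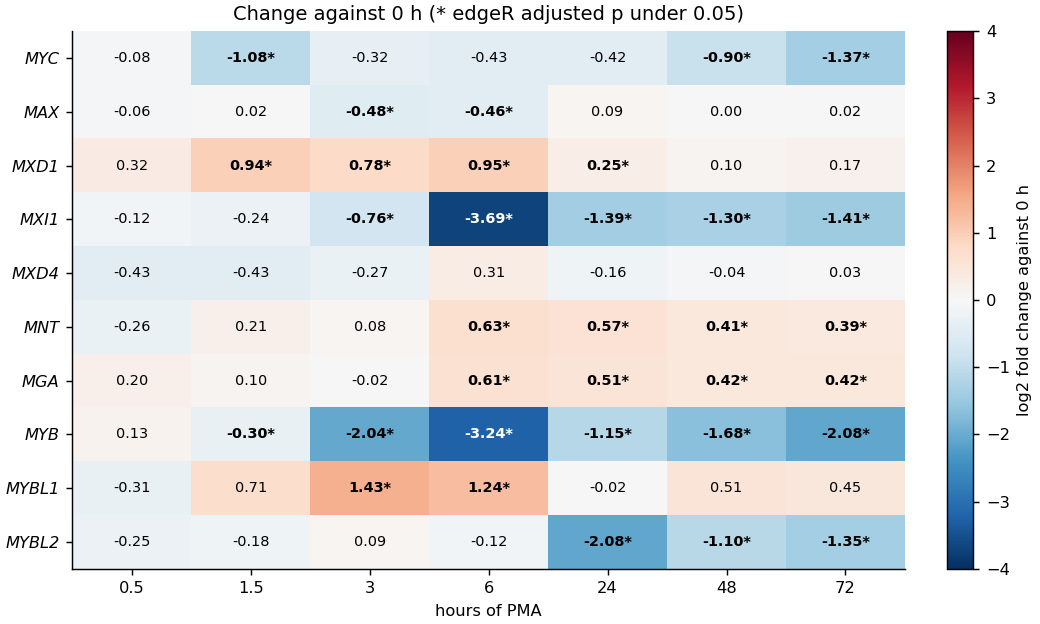
Log2 fold change against 0 h of the 10 genes (rows) at 7 time points (columns), by edgeR, with asterisks and bold type at an adjusted p under 0.05. The largest falls are -3.69 for MXI1 and -3.24 for MYB, both at 6 h, and the largest called rise is 1.43 for MYBL1 at 3 h.

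MYC mRNA fell sharply by 1.5 h, was higher again at 3 h, and was lowest at 72 h. MYC lies at chr8:127735434-127741434 on the plus strand of GRCh38. Its libraries (replicate 1, then 2) read 136 and 161 CPM at 0 h, 132 and 148 at 0.5 h, 63.9 and 76.4 at 1.5 h, then 126.5 and 111 at 3 h. Later libraries read 103 and 117 CPM at 6 h, 94.4 and 128 at 24 h, 65.8 and 93.1 at 48 h, then 49.7 and 64.9 at 72 h. Both libraries of every time point from 1.5 h on lay below both 0 h libraries, and those of 0.5 h overlapped with 0 h. Against 0 h MYC was 2.12-fold lower at 1.5 h (log2 fold change -1.08, SE 0.19, edgeR adjusted p 0.00213). It was 1.87-fold lower at 48 h (adjusted p 0.00107 by edgeR) and 2.59-fold lower at 72 h (2.92e-05). These 3 calls were kept in all 26 alternative fits.

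The partial return of MYC from 1.5 to 3 h was itself called, with a rise of 0.76 on the log2 scale (SE 0.19, edgeR adjusted p 0.0086). It did not pass without replicate 1 of 1.5 h (0.64, adjusted p 0.0941) or without replicate 1 of 3 h (0.66, 0.0645). At 3, 6 and 24 h the log2 differences from 0 h, -0.32, -0.43 and -0.42, did not pass the test. With scaling to total counts, where the median of all genes was -0.28, -0.35 and -0.26 at these times, they were -0.61, -0.80 and -0.67 and did pass. The 6 h difference passed in 9 of 26 alternative fits and that of 24 h in 7.

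MAX, the shared partner, moved less and on another schedule. The gene lies at chr14:65006174-65102695 on the minus strand. MAX libraries read 45.0 and 49.2 CPM at 0 h, 34.3 and 33.5 at 3 h, 33.0 and 35.5 at 6 h, then 47.3 and 52.7 at 24 h. At the other 4 time points they lay between 44.8 and 49.6 CPM. The libraries of 3 and 6 h stood below all others, with no overlap. MAX was 1.39-fold lower at 3 h (log2 -0.48, SE 0.09, edgeR adjusted p 0.000858) and 1.38-fold lower at 6 h (adjusted p 0.000672 by edgeR). It rose by 0.55 on the log2 scale from 6 to 24 h (edgeR adjusted p 0.000206), and its log2 difference from 0 h was 0.09 or less in size at 24, 48 and 72 h. With counts derived from length-scaled TPM the 3 h call held and that of 6 h did not (-0.41, adjusted p 0.0847), nor did the step from 1.5 to 3 h (-0.49, adjusted p 0.0923) or the rise from 6 to 24 h (0.40, adjusted p 0.0942). Transcripts of MAX annotated as protein-coding summed to 32.0 and 36.4 TPM at 0 h and 38.6 and 39.9 at 0.5 h. They read 42.7 and 49.9 TPM at 24 h, 41.4 and 52.8 at 48 h, then 43.6 and 53.35 at 72 h. Retained-intron transcripts held 20.4 and 32.9% of the gene's TPM at 0 h, 6.35 and 11.2% at 0.5 h, then 5.75 and 6.49% at 72 h. These sums and shares were not tested.

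The 3 MXD repressors diverged: MXD1 rose early and returned, MXI1 was lowest at 6 h, and MXD4 was not called against 0 h. MXD1 (chr2:69897688-69942945, plus strand) is the family member known for its induction in maturing myeloid cells. Its libraries read 86.4 and 74.0 CPM at 0 h, 105 and 95.1 at 0.5 h, 152 and 157 at 1.5 h, 146 and 130 at 3 h, then 156 and 154 at 6 h. They then read 94.7 and 96.5 CPM at 24 h, 83.9 and 87.9 at 48 h, then 96.1 and 84.0 at 72 h. From 0.5 to 24 h both libraries stood above 0 h, and those of 48 and 72 h overlapped with it. MXD1 was 1.92-fold higher at 1.5 h (log2 0.94, SE 0.10, edgeR adjusted p 4.26e-05), 1.72-fold at 3 h and 1.93-fold at 6 h, all kept in the 26 alternative fits. It then dropped by 0.70 on the log2 scale from 6 to 24 h (SE 0.10, edgeR adjusted p 5.86e-05).

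The remaining rise of MXD1 at 24 h, 0.25 on the log2 scale (edgeR adjusted p 0.0451), was lost in 16 of 26 alternative fits. It was 0.00 with scaling to total counts (adjusted p 0.974), 0.15 without replicate 2 of 0 h (0.275) and 0.21 without replicate 2 of 24 h (0.243). Leaving out replicate 1 of 0.5, 1.5, 6, 24 or 48 h, or replicate 2 of 0.5, 1.5, 6 or 48 h, also lost it, with values of 0.25 to 0.27. An exon of MXD1 shares 172 nt with SNRNP27 on the same strand, so reads from this stretch are split between the genes by estimation.

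MXI1 (chr10:110207605-110287365, plus strand), which encodes the MXD family protein MXI1, showed the largest fall of the 10 genes. Its libraries read 20.9 and 15.3 CPM at 0 h, 17.6 and 15.6 at 0.5 h, 15.5 and 15.1 at 1.5 h, 13.0 and 8.29 at 3 h, then 1.54 and 1.27 at 6 h. They read 6.84 and 6.95 CPM at 24 h, 7.19 and 7.53 at 48 h, then 5.46 and 8.18 at 72 h. The 6 h values rest on 36 estimated reads in each library, against 682 and 474 at 0 h. MXI1 was 12.9-fold lower at 6 h (log2 -3.69, SE 0.27, edgeR adjusted p 5.01e-08). It rose by 2.30 on the log2 scale from 6 to 24 h (SE 0.27, edgeR adjusted p 8.79e-06) and stayed 2.46-fold to 2.66-fold lower than at 0 h from 24 to 72 h. The smaller fall at 3 h (-0.76, edgeR adjusted p 0.0131) was lost without replicate 1 of 0 h (-0.51, 0.123) or replicate 2 of 3 h (-0.47, 0.132).

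The fall of MXI1 was seen in the summed transcripts of its upstream starts and in those of its downstream start. Levels corrected for transcript length are given as TPM, the length-scaled abundance estimate of each transcript. Transcripts of the upstream starts summed to 5.33 and 4.76 TPM at 0 h, 1.61 and 1.73 at 3 h, 0.321 and 0.391 at 6 h, then 1.62 and 3.08 at 72 h. Those of the downstream start summed to 7.36 and 3.85 TPM at 0 h, 4.59 and 2.75 at 3 h, 0.376 and 0.333 at 6 h, then 2.25 and 2.42 at 72 h. At 3 h the upstream sums were below their 0 h range by more than the spread between replicates, while the downstream sums overlapped with theirs. MXI1-201, a protein-coding transcript of the downstream start, held 35.0 and 23.2% of the gene's TPM at 0 h and 0% in both 6 h libraries. The upstream MXI1-202 held 46.05 and 54.03% at 6 h, on 36 estimated reads per library for the whole gene. The difference between the starts was not tested, and estimates for overlapping transcripts share reads. The last promoter window printed above, with its pair of E2F cores, precedes the downstream start, and the window with no match precedes the first. That of the middle start, which is also among the upstream starts, held an E2F core 246 bases before it.

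**Figure D3:**
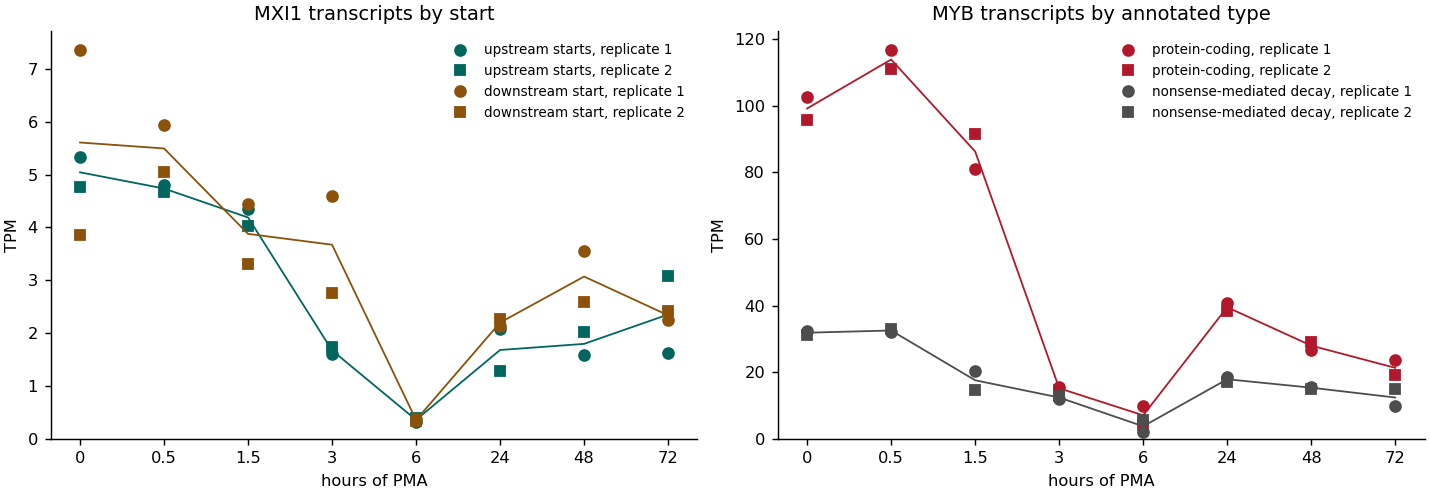
Left, summed TPM of MXI1 transcripts from the upstream starts (green) and the downstream start (brown); right, summed TPM of MYB transcripts annotated as protein-coding (red) and as nonsense-mediated decay (grey), at 0 to 72 h of PMA. Circles are replicate 1, squares replicate 2 and lines means. Both MXI1 groups reach 0.321 to 0.391 TPM at 6 h, and protein-coding MYB falls from 95.7 to 103 TPM at 0 h to 14.7 to 15.6 TPM at 3 h.

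MXD4 (chr4:2247432-2262294, minus strand) moved between time points without a call against 0 h. Its libraries read 22.2 and 25.4 CPM at 0 h, 18.6 and 16.7 at 0.5 h, 18.2 and 17.1 at 1.5 h, 23.1 and 16.3 at 3 h, then 29.8 and 29.1 at 6 h. From 24 to 72 h they lay between 19.6 and 27.0 CPM. The 6 h libraries were above all others. The step up from 3 to 6 h was 0.58 on the log2 scale (SE 0.16, edgeR adjusted p 0.00989) and the step down from 6 to 24 h was -0.47 (0.0228). Without replicate 2 of 3 h the step up was 0.35 (adjusted p 0.106), and the step down did not pass without replicate 1 or 2 of 6 h (-0.47 and -0.50) or replicate 1 of 24 h (-0.36). With GC trends removed MXD4 was called higher than 0 h at 6 h (0.66, against 0.31), and with scaling to total counts it was called lower at 1.5, 3 and 24 h (-0.52, -0.56 and -0.41).

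MNT and MGA, the larger MAX-binding repressors, were both called higher than 0 h from 6 h to 72 h. MNT (chr17:2384060-2401118, minus strand) is a widely expressed antagonist of MYC. Its libraries read 43.8 and 50.5 CPM at 0 h, 37.8 and 40.9 at 0.5 h, 56.3 and 52.6 at 1.5 h, 48.4 and 51.2 at 3 h, then 70.3 and 75.3 at 6 h. They read 66.5 and 73.5 CPM at 24 h, 57.4 and 68.2 at 48 h, then 53.4 and 70.2 at 72 h. Both libraries from 6 h on exceeded both 0 h libraries, as did those of 1.5 h. The step from 0.5 to 1.5 h, 0.47 on the log2 scale, did not pass (edgeR adjusted p 0.0533) but passed in 13 of 26 alternative fits. With GC trends removed MNT was also called higher than 0 h at 1.5 h (0.46, edgeR adjusted p 0.00498). MNT was 1.54-fold higher at 6 h (log2 0.63, SE 0.13, edgeR adjusted p 0.000878), with log2 differences of 0.57, 0.41 and 0.39 at 24, 48 and 72 h.

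The MNT calls depended on the scaling: with total counts the values at 6, 24, 48 and 72 h were 0.26, 0.32, 0.25 and 0.24 and did not pass. Those of 48 and 72 h were also lost without replicate 1 of 0 h (0.32 and 0.29). Each was lost at its own time without replicate 2 of 48 h (0.29) or of 72 h (0.18). Counts from length-scaled TPM gave 0.25 and 0.26 at 48 and 72 h (edgeR adjusted p 0.104 and 0.088). With only the 2 groups compared they were 0.40 and 0.35 (edgeR adjusted p 0.0561 and 0.15), and neither fit kept the calls. The annotated type of MNT transcripts shifted as well. Retained-intron transcripts held 57.8 and 52.8% of the gene's TPM at 0 h and 34.6 and 27.6% at 24 h, while protein-coding transcripts held 35.6 and 42.6% at 0 h and 57.7 and 70.1% at 24 h. The protein-coding transcripts summed to 8.90 and 9.72 TPM at 0 h and 16.9 and 17.8 TPM at 24 h, and all transcripts to 25.0 and 22.8 TPM at 0 h and 29.2 and 25.4 TPM at 24 h. In TPM of all transcripts the libraries of 6 h (26.05 and 23.3) and 72 h (24.83 and 32.55) overlapped with 0 h.

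MGA (chr15:41621224-41773081, plus strand) pairs with MAX and anchors PRC1.6, a Polycomb complex. Its libraries read 189 and 172 CPM at 0 h, 206 and 208 at 0.5 h, 190.0 and 196 at 1.5 h, 176 and 180 at 3 h, then 274 and 280 at 6 h. They read 267 and 248.7 CPM at 24 h, 246 and 237 at 48 h, then 255 and 229 at 72 h. Between 3 and 6 h MGA moved in CPM from within the 0 h range to well above it, and it then stayed there. In TPM it read 47.47 and 38.45 at 0 h. The TPM of 6 h (51.82 and 44.58) and of 24 h (55.96 and 46.54) overlapped with 0 h, and that of 48 and 72 h lay above it. MGA was 1.53-fold higher at 6 h (log2 0.61, SE 0.09, edgeR adjusted p 2.72e-05), 1.43-fold at 24 h, and 1.34-fold at 48 and 72 h. The calls at 6, 24 and 48 h were kept in all 26 alternative fits, with values down to 0.25 under scaling to total counts. That of 72 h was lost in the fit of the 2 groups alone (0.38, adjusted p 0.108).

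The balance of MYC against the MXD genes was described per transcript length, as TPM of MYC over the summed TPM of MXD1, MXI1 and MXD4 in the same library. The ratio was 1.92 and 3.15 at 0 h, 1.79 and 2.05 at 0.5 h, 0.711 and 0.812 at 1.5 h, then 1.36 and 1.31 at 3 h. It was 1.09 and 1.13 at 6 h, 1.48 and 1.90 at 24 h, 1.02 and 1.58 at 48 h, then 0.712 and 1.01 at 72 h. Both libraries of every time point from 1.5 h on were below both 0 h libraries, and both of 1.5 h were under 1. The summed MXD level itself ranged only from 44.8 to 70.3 TPM over all libraries, as MXD1 rose while MXI1 fell, so most of the range of the ratio lay in MYC, at 36.4 to 154.5 TPM. The sums take in transcripts of every annotated type, and the protein-coding MXD4-201 held only 28.4 to 60.0% of the TPM of MXD4. This ratio of mRNA levels was not tested.

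**Figure D4:**
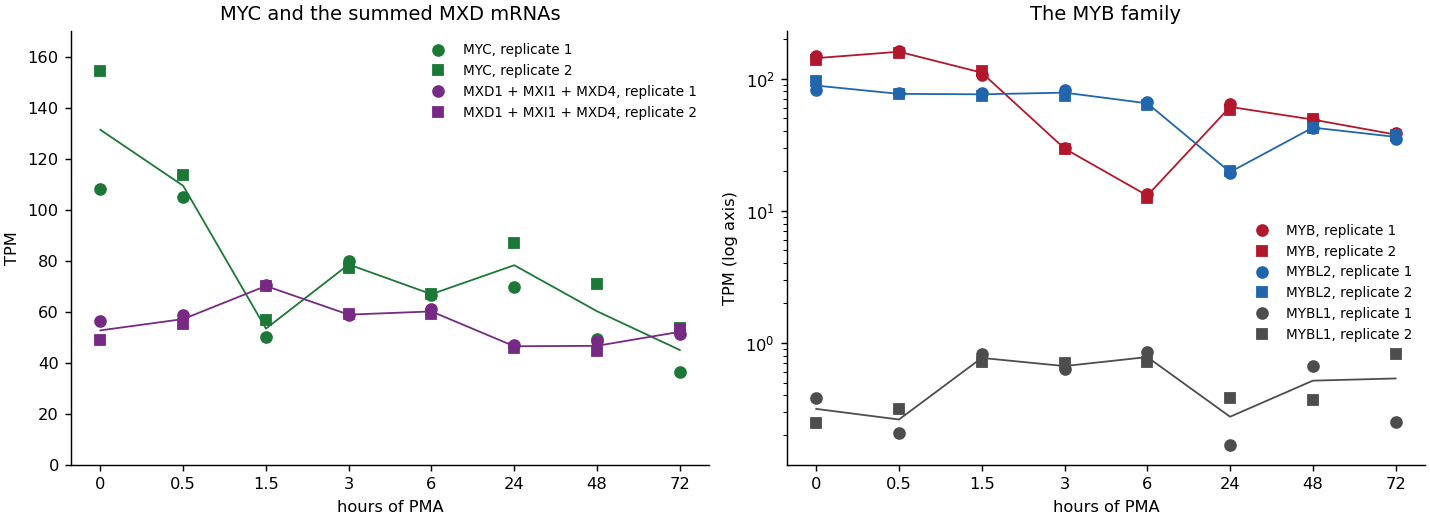
Left, TPM of MYC (green) and the sum of MXD1, MXI1 and MXD4 (purple) on an axis from 0; right, TPM of MYB (red), MYBL2 (blue) and MYBL1 (grey) on a log axis, at 0 to 72 h of PMA. Circles are replicate 1, squares replicate 2 and lines means. MYC lies below the MXD sum in both libraries at 1.5 h, and MYB crosses below MYBL2 at 3 and 6 h and is above it at 24 h.

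MYB, at chr6:135181315-135219173 on the plus strand, collapsed within 6 h, recovered in part at 24 h and declined again. MYB libraries read 241 and 249.6 CPM at 0 h, 269 and 268 at 0.5 h, 187 and 210.5 at 1.5 h, 60.7 and 58.9 at 3 h, then 26.8 and 25.3 at 6 h. They then read 108 and 113 CPM at 24 h, 72.5 and 81.0 at 48 h, then 58.0 and 58.2 at 72 h. The ranges of the time points from 1.5 h on did not overlap, and those of 3 and 72 h lay closest to each other. MYB was 4.10-fold lower than 0 h at 3 h (log2 -2.04, SE 0.09, edgeR adjusted p 7.99e-10) and 9.43-fold lower at 6 h (-3.24, SE 0.09, adjusted p 7.32e-12 by edgeR). It rose 4.25-fold from 6 to 24 h (log2 2.09, SE 0.09, edgeR adjusted p 1e-09), where it was still 2.22-fold under 0 h, and was 4.22-fold under it at 72 h.

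Each of the 6 steps between neighbouring times from 0.5 h on was called for MYB. The calls from 3 h against 0 h onward were kept in all 26 alternative fits. The early fall at 1.5 h (-0.30, edgeR adjusted p 0.028) was lost in 9 of them. Among these were the fits without replicate 1 of 1.5 h (-0.22, adjusted p 0.211), replicate 2 of 0 h, either 6 h library or replicate 2 of 24 h (-0.28 each). The step from 0.5 to 1.5 h (-0.44) was lost without either 0.5 h library (-0.44 each) or replicate 1 of 1.5 h (-0.36). The last step, from 48 to 72 h (-0.40, edgeR adjusted p 0.0388), was lost in 15 of the 26, with values of -0.32 to -0.48. These include the fits without either library of 0.5, 6, 24, 48 or 72 h.

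Within MYB the estimated makeup of transcripts differed between 0 and 3 h. Its protein-coding transcripts summed to 103 and 95.7 TPM at 0 h, 15.6 and 14.7 at 3 h, 9.81 and 4.26 at 6 h, then 40.7 and 38.4 at 24 h. Transcripts annotated as targets of nonsense-mediated decay summed to 32.5 and 31.2 TPM at 0 h, 11.8 and 12.9 at 3 h, 1.90 and 5.56 at 6 h, then 18.6 and 17.2 at 24 h. The share of the nonsense-mediated decay type was 21.9 and 22.8% at 0 h and 39.9 and 44.0% at 3 h. Of 42 MYB transcripts the one with the highest estimate was MYB-205 at 0 h, with 34.7 and 34.5% of the gene, and MYB-204 at 3 h, with 24.5 and 32.2%. At 6 h the libraries disagreed on the leading transcript, MYB-241 in replicate 1 and MYB-204 in replicate 2, at 627 and 715 reads for the whole gene. There MYB-204 held 0% in replicate 1 and 33.8% in replicate 2. These sums and shares of MYB were not tested, and estimates for overlapping transcripts share reads.

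MYBL2 kept its level through 6 h and fell by 24 h, when MYB was rising. It lies at chr20:43667019-43716496 on the plus strand. MYBL2 libraries read 130 and 168 CPM at 0 h, 126 and 126 at 0.5 h, 130 and 134 at 1.5 h, 172 and 146 at 3 h, then 133 and 143 at 6 h. They then read 32.6 and 38.2 CPM at 24 h, 66.5 and 73.1 at 48 h, then 56.5 and 60.4 at 72 h. The libraries up to 6 h lay between 125.8 and 172 CPM, of which the 0 h pair spanned most, and every library from 24 h on was below them. MYBL2 was 4.22-fold lower at 24 h (log2 -2.08, SE 0.13, edgeR adjusted p 1.13e-08), 2.14-fold at 48 h and 2.55-fold at 72 h, kept in all 26 alternative fits. From 24 to 48 h it rose by 0.98 on the log2 scale (SE 0.13, edgeR adjusted p 0.000173).

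The call of MYBL2 at the early times changed with a 0 h library. Without replicate 1 of 0 h it was called lower at 0.5 h (-0.41, edgeR adjusted p 0.0314) and at 1.5 h (-0.35, 0.0455), against -0.25 and -0.18 with it. With scaling to total counts it was called lower at 6 h (-0.48, adjusted p 0.00122), and with GC trends removed higher at 3 h (0.24, 0.015).

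MYBL1 (chr8:66562175-66614247, minus strand) was scarce throughout, with 13 to 53 estimated reads per library. It read 0.706 and 0.418 CPM at 0 h, 1.45 and 1.598 at 3 h, 1.32 and 1.34 at 6 h, then 0.4196 and 0.664 at 24 h. At the remaining 4 time points it read between 0.430 and 1.04 CPM. The libraries of 3 and 6 h stood above all others. MYBL1 was 2.69-fold higher at 3 h (log2 1.43, SE 0.34, edgeR adjusted p 0.00393) and 2.36-fold higher at 6 h (adjusted p 0.00757 by edgeR), and it fell by 1.26 on the log2 scale from 6 to 24 h. The 6 h call was lost without replicate 2 of 0 h (0.91, adjusted p 0.0788) and with scaling to total counts (0.87, 0.055). The step to 24 h was lost without replicate 1 of 24 h (-1, adjusted p 0.0541). That of 3 h was lost with counts derived from length-scaled TPM (1.33, adjusted p 0.0535). Its transcript shares are not read, since single transcripts held between 0 and 67.4% of so few reads.

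The order of the 10 genes by TPM, summed over transcripts of every annotated type, changed over the course. At 0 h it ran from MYB (137 to 148 TPM) and MYC (108 to 154.5) through MYBL2 (81.3 to 95.6), MAX (49.5 to 64.9), MGA (38.4 to 47.5), MXD1 (24.6 to 30.0) and MNT (22.8 to 25.0) to MXD4 (13.7 to 15.8), MXI1 (8.61 to 12.7) and MYBL1 (0.248 to 0.385). Within this order the ranges of MYB and MYC overlapped, as did those of MXD1 and MNT, and the other neighbours did not. The order depended on the transcript types summed. With protein-coding transcripts only, MAX (32.0 and 36.4 TPM) overlapped with MGA (40.6 and 33.6) at 0 h. MXD1 (24.2 and 18.9 TPM) then did not overlap with MNT (8.90 and 9.72). At 6 h MYC (66.8 to 67.0 TPM) and MYBL2 (63.5 to 66.3) led, MYB stood 8th (12.6 to 13.5) and MXI1 last (0.697 to 0.724), its highest value above the lowest of MYBL1 (0.714 to 0.848). At 72 h MAX (48.9 to 59.5 TPM), MGA (49.5 to 56.0) and MYC (36.4 to 53.6) formed an overlapping top, followed by MYB (36.8 to 38.5) and MYBL2 (34.9 to 37.4), whose ranges overlapped with each other and with that of MYC. The ratio of MYB to MYBL2 was 1.82 and 1.43 at 0 h, 0.203 and 0.198 at 6 h, 3.36 and 2.88 at 24 h, then 1.104 and 0.982 at 72 h.

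Of the other genes of the MYC, MAX and MLX network, 5 of 6 were tested and none was called higher at any time. At 6 h 4 of 5 were lower, with a median log2 difference of -1.57, against 29.4% of all genes lower and a median of 0.001. MYCL, a MYC relative, went from 56.7 CPM at 0 h to 7.74 at 6 h, with 22.3 CPM at 24 h (log2 -2.87 and -1.34, both called). MXD3, an MXD gene of dividing cells, went from 7.89 to 2.65 CPM at 6 h (-1.57, called). MLXIPL, the glucose-responsive factor ChREBP, fell later, from 47.3 to 15.4 CPM at 6 h and 5.80 at 72 h (log2 -3.03, SE 0.18, edgeR adjusted p 5.01e-09). MLX, its partner, and MLXIP, a relative of MLXIPL, were called lower at a single time each, MLX at 6 h (-0.26) and MLXIP at 3 h (-0.48). MYCN was under the filter, at 0 CPM in the mean at 0 h and at most 0.0723 CPM at any time.

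Among 16 cofactors and turnover factors of MYC, 6 were higher and 9 lower at 6 h, and 2 were higher and 9 lower at 72 h. Of all genes 27.8% were higher and 29.4% lower at 6 h, and 31.7 and 26.9% at 72 h. With total counts these were 1 and 10 at 6 h and 0 and 10 at 72 h. PIM1, a kinase that phosphorylates MYC, fell from 792 to 76.6 CPM at 24 h (log2 -3.37, SE 0.13, edgeR adjusted p 8.55e-11). ZBTB17, which encodes the MYC partner MIZ1, rose from 33.7 to 69.9 CPM at 6 h (1.05, SE 0.13, adjusted p 9.88e-06 by edgeR). Of 8 genes of the SIN3 and HDAC corepressor that MXD proteins recruit, 5 rose and 0 fell at 24 h, with a median of 0.29 against -0.013 for all genes (31.7% of all genes higher, 26.6% lower), but 1 and 1 with total counts. At 6 h 5 rose and 0 fell, with a median of 0.26, but 0 rose and 3 fell with total counts, with a median of -0.11. SUDS3, a SIN3 subunit, rose by 0.56 on the log2 scale at 24 h (edgeR adjusted p 4.45e-05). Among 9 partners of MGA in PRC1.6, 4 rose and 2 fell at 24 h (31.7 and 26.6% of all genes), and 0 and 2 with total counts. RYBP, a Polycomb subunit, rose from 49.96 to 122 CPM at 3 h (log2 1.29, edgeR adjusted p 2.25e-06), and TFDP1, the E2F partner, fell from 90.7 to 52.4 CPM at 24 h (-0.79).

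Genes that MYC is known to activate were called in both directions early and mostly lower late. Of 32 such genes, 13 were higher and 5 lower at 3 h, with a median of 0.22 (21.5% of all genes higher, 20.5% lower). At 6 h 10 were higher and 11 lower (27.8 and 29.4% of all genes). Their calls turned to 5 higher and 16 lower at 24 h (31.7 and 26.6% of all genes). At 72 h they were 0 higher and 21 lower (31.7 and 26.9%), with a median of -0.62 against -0.032 for all genes. At 3 h the direction rested on the scaling: with total counts 6 were higher and 13 lower, with a median of -0.07, and at 6 h 4 and 17. At 24 h it gave 3 and 21, and at 72 h 0 and 26. Without replicate 2 of 0 h the 18 calls at 3 h became 11. ODC1, the first enzyme of polyamine synthesis, rose from 224 to 569 CPM at 6 h (log2 1.35, SE 0.10, edgeR adjusted p 5.51e-08). CDK4, the G1 kinase, fell from 170 to 42.2 CPM at 6 h (-2.01, SE 0.15, adjusted p 5.86e-08 by edgeR).

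Of 6 genes that MYC is known to repress, 5 were tested, and 4 of these were higher and 1 lower at 24, 48 and 72 h, also with total counts. Of all genes 31.7, 30.2 and 31.7% were higher at these times and 26.6, 24.1 and 26.9% lower. CDKN1A, the cell-cycle inhibitor p21, rose from 13.6 CPM at 0 h to 501 at 3 h (log2 5.20, SE 0.17, edgeR adjusted p 4.75e-11), and was at 87.9 CPM at 72 h. GADD45A, a stress-response gene, rose from 90.6 to 727 CPM at 6 h (3.00 on the log2 scale). NDRG1, a gene of differentiation and hypoxia, rose to 101 CPM at 72 h from 3.26 at 0 h (4.95). NDRG2, its relative, was called from 24 h on (1.46). CDKN1B, the inhibitor p27, was the member that fell, by 1.06 on the log2 scale at 3 h (edgeR adjusted p 2.08e-05). CDKN2B, under the filter, was at a mean of 0 CPM at every time.

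Genes known as MYB targets in blood cells split in both directions. Of 8, 7 were tested and ELANE was under the filter. At 6 h 1 was higher and 4 lower (27.8 and 29.4% of all genes). At 24 h 4 were higher and 3 lower (31.7 and 26.6% of all genes), and 3 and 3 with total counts. LMO2, a blood progenitor factor, ran from 25.9 CPM at 0 h to 7.65 at 6 h, with 36.9 CPM at 24 h (log2 -1.76 at 6 h and 0.51 at 24 h, both called). GFI1, a repressor in progenitors, was at 2.38 CPM at 0 h, 0.67 at 3 h and 4.02 at 24 h (-1.81 and 0.75, both called). BCL2, an anti-apoptotic gene, fell from 4.68 to 0.568 CPM at 6 h (-3.05, edgeR adjusted p 3.77e-06) and was 0.806 at 72 h. KIT, a growth factor receptor, rose from 0.574 to 34.3 CPM at 72 h (5.88). MPO, a granule enzyme, went from 0.0629 CPM at 0 h, under the level of 3 reads, to 27.4 at 24 h, called by edgeR. CD34 and ADA were called lower at 24 h (-0.99 and -2.00).

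Genes bound by MYBL2 with MuvB in G2 and mitosis had calls in the higher direction only at 1.5 and 3 h, in both directions at 6 h, and mostly lower from 24 h. Of 18, 7 were higher and 0 lower at 1.5 h, with a median of 0.41 (9.05% of all genes higher), while MYBL2 itself was not called. At 24 h, when MYBL2 was lowest, 1 was higher and 14 lower, with a median of -0.85 against -0.013 for all genes and 26.6% of all genes lower. At 48 h 9 were lower with a median of -0.36 (24.1% of all genes lower), and at 72 h 11 with -0.46 (26.9%). Of all genes 21.5% were higher and 20.5% lower at 3 h, and 27.8 and 29.4% at 6 h. With total counts the 3 h calls turned from 7 higher and 0 lower to 3 and 4, those of 6 h from 4 and 8 to 1 and 11, and those of 48 h from 1 and 9 to 0 and 13. AURKA, a mitotic kinase, rose from 102 to 248 CPM at 3 h (log2 1.28, SE 0.09, edgeR adjusted p 7.05e-08). CCNA2, which encodes cyclin A2, fell from 162 to 46.5 CPM at 24 h (-1.80, SE 0.14, adjusted p 9.67e-08 by edgeR).

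**Figure D5:**
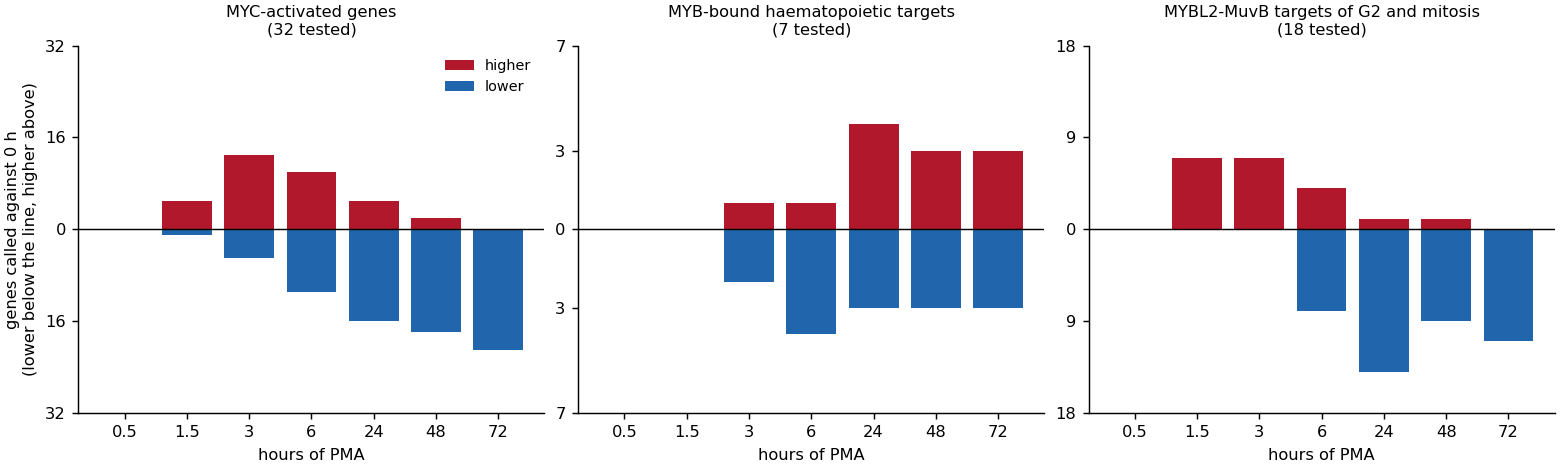
Number of genes called higher (red, above the line) and lower (blue, below it) against 0 h by edgeR in lists of 32 MYC-activated genes, 7 MYB targets and 18 MYBL2-MuvB targets, at 0.5 to 72 h of PMA. The MYC-activated list has 13 higher and 5 lower at 3 h (21.5 and 20.5% of all genes). At 72 h it has 0 higher and 21 lower (31.7 and 26.9%). With total counts most of its 3 h calls were lower. The MYBL2-MuvB list has 7 higher and 0 lower at 1.5 h (9.05 and 8.05% of all genes). At 24 h it has 1 higher and 14 lower (31.7 and 26.6%).

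Partners of MYB and MYBL2 were called in both directions. Of 4 MYB coactivators, 2 rose and 1 fell at 6 h (2 and 2 with total counts), beside 27.8% of all genes higher and 29.4% lower. EP300, an acetyltransferase, rose from 139 to 318 CPM at 6 h (log2 1.19, edgeR adjusted p 3.32e-08) and its relative CREBBP from 153 to 252 CPM (0.72). MEN1, which encodes menin, fell from 42.4 to 18.5 CPM at 6 h (-1.198, adjusted p 8.49e-06 by edgeR), and KMT2A, its methyltransferase partner, was called at 3 h only (-0.37). Of 9 MuvB and DREAM genes, 4 were lower and 1 higher at 24 h (5 and 0 with total counts), beside 26.6% of all genes lower and 31.7% higher. FOXM1, the mitotic factor that acts with MYBL2, went from 64.1 to 29.7 CPM at 24 h (-1.11, called). RBL2, the pocket protein p130, fell from 70.4 CPM at 0 h to 29.5 at 6 h (-1.25) and stood at 80.2 CPM at 24 h, not called there. LIN37, a MuvB subunit, rose from 8.54 to 18.6 CPM at 6 h (1.12).

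Next to MYB on chromosome 6, AHI1 rose from 55.3 CPM at 0 h to 114 at 24 h (log2 1.05, SE 0.14, edgeR adjusted p 1.79e-05), and it was called at every time from 1.5 h on. HBS1L, on the other side of MYB, was not called at any time, with differences between -0.26 and 0.32. With total counts AHI1 was not called at 1.5 h (0.37, adjusted p 0.0828), and HBS1L was called lower at 6 h (-0.54), 48 h (-0.39) and 72 h (-0.43). PVT1, the neighbour of MYC, was not analysed here.

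By likeness of course, as Pearson's r of log2(CPM + 0.5) over the 8 time-point means among 10925 protein-coding genes with a mean of 5 CPM or more, IKZF1 (0.993) and NSL1 (0.991) were among the genes closest to MYB. IKZF1, the lymphoid and progenitor factor Ikaros, ran from 102 CPM at 0 h to 22.4 at 6 h, with 69.9 CPM at 24 h. MYBL2 lay closest to KIF18B (0.992), OR10H5 and H2AC20 (0.989 each), and the mitotic kinesin KIF18B fell from 68.8 to 24.2 CPM at 24 h. MXD1 lay closest to NSRP1 (0.991), SRSF5 (0.989) and ZFP36 (0.981), the last an RNA-decay factor that went from 14.1 to 117 CPM at 1.5 h. MYC had no near match, with ABCD4 (0.891), RPS9 (0.886) and DDX52 (0.87) on top. These correlations over 8 points of the same libraries are descriptions.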

How the data were processed

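Each deposited table lists 177456 Ensembl transcripts of a library with, per the file headers, an estimated count of reads (expected counts, not normalized) and TPM. Salmon, Trim Galore 0.4.3 and other tools, and the builds hg19 and hg38, are named in the submitters' processing notes without roles; the Salmon version is not given in the sources used here. Transcripts were joined to GENCODE release 29 on GRCh38 by identifier without version: 167027 (94.1%) matched, in 35052 genes, and the rest held 3.01 to 3.75% of reads. Counts were summed per gene and rounded. They were fitted with edgeR 4.0.16 in R 4.3.3 (filterByExpr, TMM factors of 0.854 to 1.139, all 8 groups in 1 quasi-likelihood fit without covariates, Benjamini-Hochberg adjustment over 17559 genes), which was tested on simulated data first. Standard errors are the absolute unshrunk log2 fold change divided by the square root of F. With only 2 libraries on each side no exact permutation test can reach 0.05, so single genes rest on the model. It estimates a spread per gene over all 8 groups (8 residual degrees of freedom). That spread is moderated by the spread of all genes (median prior degrees of freedom 5.28). The common biological coefficient of variation was 0.123. DESeq2 1.42.0 was an alternative. TPM was summed per gene without a test and used for levels between genes. Library totals of 27285773 to 54056289 reads put the level of 3 reads at or near 0.1 CPM.

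The 10 genes and the companion lists were chosen with earlier results of these data known. All 10 are named. Companion lists of over 9 genes are represented by the called gene that rose most and the one that fell most, given a mean level of 1 CPM or higher, and from smaller lists any tested gene may be named. The alternatives were DESeq2 size factors, total counts, a looser and a stricter filter, length-scaled TPM, only the 2 groups compared, the replicate number as a block, GC trends removed, both together, leaving out each library, and the DESeq2 Wald test.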

Additional observations from a re-analysis of the deposited data

Results flagged for a closer look

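Of 60 tests between neighbouring time points after 0 h (10 genes and 6 steps), 21 passed by edgeR, which is a direct test that the difference from 0 h was not the same at both times. Values are log2 fold changes of the later against the earlier time. From 0.5 to 1.5 h, where 5.77% of all genes were called, MYC changed by -1, MYB by -0.44 and MXD1 by 0.62. From 1.5 to 3 h (25.1% of all genes) MYC changed by 0.76, MAX by -0.49 and MYB by -1.73. From 3 to 6 h (41.2%) MXI1 changed by -2.93, MYB by -1.2, MXD4 by 0.58, MNT by 0.55 and MGA by 0.64. From 6 to 24 h (56.6%) MXI1 changed by 2.30, MYB by 2.09, MAX by 0.55, MXD1 by -0.70, MXD4 by -0.47, MYBL1 by -1.26 and MYBL2 by -1.96. From 24 to 48 h (15.0%) MYB changed by -0.53 and MYBL2 by 0.98. From 48 to 72 h (1.47%) MYB changed by -0.40.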

How the results depend on the processing

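Of 33 calls against 0 h, 22 were kept in all 26 alternatives, as were 12 of 21 calls between neighbouring times, and no direction reversed. The number of genes called moved by over 1.5 times in these cases, whose cause was not tested. At 0.5 h it was 0 and ranged from 0 to 2 over the fits that leave out a library, with 2 without replicate 1 of 0 h. With total counts it was 8 in place of 5 at 3 h and 6 in place of 3 from 1.5 to 3 h. From 0.5 to 1.5 h it was 5 in place of 3 with only the 2 groups compared, and 1 without replicate 1 of 1.5 h or replicate 2 of 0.5 h. From 48 to 72 h the 1 call became 0 with DESeq2 size factors, with at least 10 counts in every library, with length-scaled TPM and with only the 2 groups compared, and ranged from 0 to 1 when a library was left out. The MYC-activated genes called at 3 h were 18, against 7 with only the 2 groups compared and 11 without replicate 2 of 0 h, with a range of 11 to 20 over the libraries left out. The labels do not say that replicate numbers pair the libraries, and they were not used as pairs, since 24 of 28 pairs of time points, not all, had a correlation of replicate deviations over 0.1 (from -0.30 to 0.60). With the replicate number as a block 8 genes were called at 6 h in place of 7 and 7 at 24 h in place of 6, with no call lost; the added call was MYC (-0.43 at both times, adjusted p 0.0115 and 0.0125). MYC was also called from 24 to 48 h (-0.49, adjusted p 0.0218) and MNT from 0.5 to 1.5 h (0.47, adjusted p 0.0128), and with the block and GC trends removed 4 from 24 to 48 h in place of 2. Depth limits MYBL1 throughout and MXI1 at 6 h.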
